A study of Homo sapiens with 9 samples.

Results

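The proteins of the large (60S) subunit of the human cytosolic ribosome were followed by ribosome profiling in cells treated with PF8503 or PF846, with RPL27 set against the rest of the subunit. Members were taken by gene symbol, as every transcript whose symbol starts with RPL followed by a digit or by P and holds no hyphen. The rule gave 49 of the 9221 transcripts listed for either compound, and all 49 were listed for both. Of these, 44 are standard proteins of the subunit and the rest are like-named paralogs (RPL7L1, RPL22L1, RPL26L1, RPL36AL and RPL39L). RPL36A, RPL41, RPL3L and RPL10L were not among the transcripts analysed here.

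The cells were Huh-7, a human hepatocellular carcinoma line, grown overnight and treated for 1 hr with 1.5 μM PF8503 (PF-06378503), 1.5 μM PF846 (PF-06446846) or 0.5% DMSO as vehicle, with 3 biological replicates per condition and 9 libraries in all. Both compounds are small molecules that stall ribosomes on selected nascent chains, and ribosome profiling counts the mRNA fragments (footprints) that ribosomes protect from nuclease. Cells of all conditions were rinsed and lysed in cycloheximide. Each condition has sequencing lanes of its own in the library names, which means that an effect of lane cannot be told apart from one of treatment.

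The authors counted footprints downstream of the codon at which treated and vehicle cells diverged most, where that divergence passed their score threshold, and elsewhere over the coding sequence without 10 codons at each end. They deposited, for each compound, the mean normalised count of each condition, with no value of a single library. Each mean is a sum of whole counts divided by the size factors (depth scalings) of 3 libraries, and the counts of single libraries were worked out from this. All 49 members were resolved in every library, and 47 of them had the same vehicle counts, library by library, when each table was solved on its own. Libraries are named a, b and c from the smallest to the largest size factor within a condition, a name that is tied to no replicate number. Total counts per library over resolved transcripts ran from 5153805 (PF846 library a) to 15881687 (PF846 library c). Of 8 hepatocyte genes checked, all were listed, with vehicle means from 1296 normalised counts for SERPINA1 to 212970 for AFP in the PF8503 table. PTPRC, HBB and COL1A1, which mark blood and connective tissue cells, were not among the transcripts analysed here.

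The large subunit carries the peptidyl transferase centre, where peptide bonds are made, and the exit tunnel through which the nascent chain leaves. Its proteins are made in matched amounts by most growing cells, and their mRNAs typically begin with a run of pyrimidines that couples their translation to growth signals. In the RefSeq promoter windows (GRCh38.p14), which covered 40 of the 49 members, 24 (60.0%) had a C at the annotated start followed by at least 4 letters that were each C or T, against 4.04% of all 27305 promoters. This motif was searched on the transcribed strand only. RPL27, RPL10A and RPL13, described below, were among the members without these letters at the annotated start, and RPL10A had them within 5 bases of it.

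RPL27 (ENSG00000131469) lies on chromosome 17, from 42998273 to 43002959 on the plus strand of GRCh38, and encodes a 60S protein of 136 codons. The coding start is printed for RPL27, for the members with the next lowest PF8503 ratios (RPL10A and RPL13), and for RPL27A, a protein that shares RPL27's name but is a different 60S component. Each line gives the first 50 codons of the canonical coding sequence (GENCODE 44, GRCh38, all exonic), with the start codon in capitals. All lie on the plus strand, with RPL10A (ENSG00000198755) on chromosome 6 from 35468401 to 35470785, RPL13 (ENSG00000167526) on chromosome 16 from 89560677 to 89564542, and RPL27A (ENSG00000166441) on chromosome 11 from 8682788 to 8714759.
RPL27: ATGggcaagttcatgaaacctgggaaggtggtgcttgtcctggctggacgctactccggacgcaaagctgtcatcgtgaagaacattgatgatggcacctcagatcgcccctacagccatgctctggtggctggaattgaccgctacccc
RPL10A: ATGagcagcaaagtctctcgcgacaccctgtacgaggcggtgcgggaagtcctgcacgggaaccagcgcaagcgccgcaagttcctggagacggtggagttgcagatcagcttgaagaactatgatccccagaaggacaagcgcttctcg
RPL13: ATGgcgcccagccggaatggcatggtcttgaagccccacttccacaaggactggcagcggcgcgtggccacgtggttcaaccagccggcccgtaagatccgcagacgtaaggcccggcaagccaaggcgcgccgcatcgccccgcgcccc
RPL27A: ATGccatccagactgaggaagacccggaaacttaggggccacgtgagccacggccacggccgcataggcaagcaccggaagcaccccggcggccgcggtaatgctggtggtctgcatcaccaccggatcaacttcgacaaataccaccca
None of the 28-base windows of the counted coding parts of RPL27, RPL10A, RPL13 or RPL27A was found in the canonical transcript of another coding gene.

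RPL27 footprints over the counted region fell with both compounds, and no other large-subunit protein passed the test with either. In vehicle cells, RPL27 had 12052, 13365 and 10542 normalised counts in libraries a, b and c, on 1 scale for all 9 libraries. With PF8503 it had 5323, 6846 and 5999.95, and with PF846 it had 5164, 4340 and 4237. The highest treated library was far below the lowest vehicle library, and the PF8503 libraries were all above the PF846 libraries. The group means were 11986 ± 1412 with vehicle, 6056 ± 763 with PF8503 and 4579.99 ± 508 with PF846 (SD, n = 3 each).

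Relative to vehicle, the authors' mean for RPL27 was 50.6% with PF8503 (6496 over 12833 normalised counts) and 38.2% with PF846 (4488 over 11761). The log2 change was -0.98 with PF8503 (SE 0.12, 95% interval -1.26 to -0.71; limma, Benjamini-Hochberg adjusted p = 0.00476 over 9150 transcripts). It was -1.39 with PF846 (SE 0.10, 95% interval -1.62 to -1.16; limma, adjusted p = 8.92e-05 over 8835 transcripts). A call here means an adjusted p under 0.05, and replicate error was taken from the libraries of that comparison. With PF8503, 1 of 49 members was called, against 0.404% of all transcripts tested, and with PF846 1 of 49, against 0.249%. All 37 calls with PF8503 and all 22 with PF846 were lower than vehicle. With PF846, RPL27 was also the only member called with all 9 libraries in 1 fit, where 0.0347% of transcripts were called. That fit held 48 of the 49 members and left out RPL13. RPL27 was again the only member called with the library sets described below as a block, where 0.69% of transcripts were called. No mRNA levels were analysed here, so a change in mRNA and a change in its translation cannot be told apart. Where a counted region starts at a point of divergence, footprints upstream of it were left out. A shift of ribosomes along the RPL27 mRNA was therefore not tested.

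**Figure D1:**
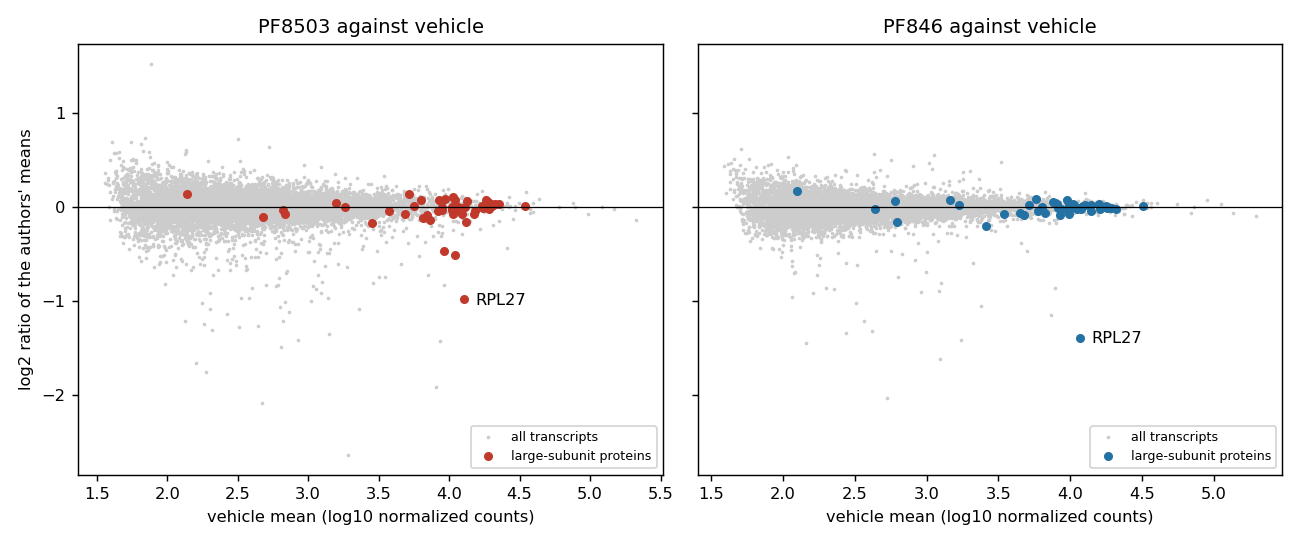
Log2 ratio of the authors' means (compound over vehicle) against the vehicle mean on a log10 axis in normalised counts, for every transcript (grey) and the 49 large-subunit proteins (coloured), with PF8503 at left and PF846 at right. RPL27 lies at -0.98 and -1.39, and the other members lie mostly along 0 at the high end of the level axis.

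The regions counted for RPL27 were nearly the same in both tables. Its vehicle counts in libraries a, b and c were 10212, 15313 and 14586 in the PF8503 table and 10223, 15339 and 14602 in the PF846 table, so the first held 99.83% to 99.89% of the second. RPL13 was counted over a clearly shorter region in the PF8503 table, with 8653, 12701 and 12972 vehicle counts against 10930, 16266 and 16336, or 78.08% to 79.41%. The authors set such regions from the same libraries that were then compared.

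Libraries of different conditions deviated together. Over 1969 abundant transcripts other than the members, deviations from the group mean matched best when vehicle a, PF8503 a and PF846 b formed set 1, vehicle b, PF8503 b and PF846 a set 2, and the c libraries set 3. Correlations of these deviations across transcripts, which share depth and composition, were 0.54 to 0.81 within sets and -0.69 to 0.20 between them. The sets were chosen for the highest correlations within them, over the same transcripts. The contrast was thus partly fixed by that choice. Each set was built to hold 1 library of every condition. What its libraries share is not given in the sources used here and was not tested. Within sets 1, 2 and 3, the log2 ratio of RPL27 to vehicle was -1.18, -0.97 and -0.81 with PF8503, and -1.48, -1.37 and -1.32 with PF846. RPL27 was lower than vehicle with each compound, and lower with PF846 than with PF8503, in all 3 sets. Because the 3 conditions did not overlap for RPL27, any pairing of the libraries would give these directions.

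**Figure D2:**
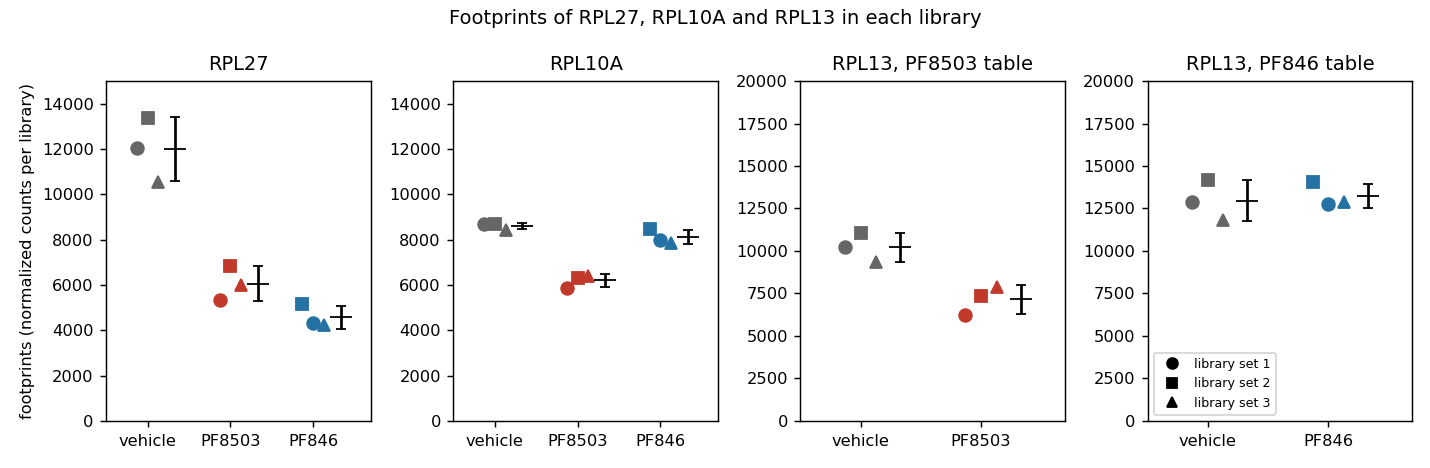
Normalised footprint counts per library (vertical axis, linear, from 0) of RPL27, RPL10A and RPL13 in vehicle (grey), PF8503 (red) and PF846 (blue) cells; symbols mark the sets of libraries that deviated together, and black bars give the mean ± SD (n = 3). RPL27 is lower with both compounds. RPL10A lies at 8447 or more with vehicle and at 6408 or less with PF8503, a difference that missed the threshold of the main test, and RPL13, counted over a shorter region in the PF8503 table, has a panel for each table.

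Set against the other large-subunit proteins of the same library, RPL27 showed the same change. Its footprints amounted to 2.42%, 2.60% and 2.32% of the summed footprints of 47 other members in vehicle libraries a, b and c. They amounted to 1.14%, 1.33% and 1.27% with PF8503, and to 0.989%, 0.916% and 0.904% with PF846. The 3 conditions did not overlap. The log2 of this ratio was lower than in vehicle by a mean difference of -0.98 with PF8503 and -1.39 with PF846, each with an exact 2-sided permutation p = 0.1, the smallest that 3 against 3 libraries allow.

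The other members as a body took a similar share of the footprints in every condition. These 47 proteins made up 5.45% ± 0.35 of footprints in vehicle, 5.42% ± 0.39 with PF8503 and 5.44% ± 0.31 with PF846 (SD, n = 3 each), and the differences of -0.029 and -0.016 percentage points were smaller than the SD between libraries. The exact 2-sided permutation p was 1 for each compound (n = 3 per group).

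Both compounds were given at the same dose and time, so RPL27 could be compared between them. Its log2 level was higher with PF8503 than with PF846 by 0.40 (SE 0.12, 95% interval 0.14 to 0.66). This did not pass the test over all transcripts (limma, 9 libraries in 1 fit, unadjusted p = 0.00561, adjusted p = 1.00 over 8634 transcripts), in which 0.0232% were called. With the library sets as a block, a fit chosen after the data were seen, the same difference had an SE of 0.064 and passed (limma, adjusted p = 0.00235, with 0.591% of transcripts called). The sets came from the libraries themselves and not from the labels, so p-values from that fit may be too small.

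RPL10A, the protein of the flexible L1 stalk through which spent tRNA leaves, had the next clearest difference with PF8503. Its libraries a, b and c had 8690, 8687 and 8447 normalised counts with vehicle, 5875, 6314 and 6408 with PF8503, and 8457, 7998 and 7855 with PF846. The PF8503 libraries lay below all others, while 1 PF846 library lay within the vehicle range. The log2 change was -0.47 with PF8503 (SE 0.088, 95% interval -0.67 to -0.28) and missed the threshold (limma, adjusted p = 0.0602). With PF846 it was -0.09 (SE 0.070, 95% interval -0.24 to 0.066; adjusted p = 1.00). RPL10A was counted over the same region in both tables.

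Settings added after the data were seen changed the RPL10A result. With all 9 libraries in 1 fit, the PF8503 change of -0.47 was called (limma, adjusted p = 0.0423), where 0.127% of transcripts were called. With the library sets as a block, it was called as well (limma, adjusted p = 0.000215), where 1.64% of transcripts were called. In sets 1, 2 and 3 its log2 ratio to vehicle was -0.56, -0.46 and -0.40 with PF8503 and -0.12, -0.04 and -0.10 with PF846. The direct difference between the compounds was -0.39 (95% interval -0.55 to -0.22), with limma's adjusted p = 0.180 without the block and 0.000979 with it.

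RPL13, another standard protein of the subunit, had 10212, 11085 and 9376 normalised counts in vehicle libraries a, b and c over the shorter region and 6225, 7366 and 7856 with PF8503. These groups did not overlap. The log2 change was -0.52 (SE 0.11, 95% interval -0.77 to -0.27) and was not called (limma, adjusted p = 0.151). With the sets as a block it was called (limma, adjusted p = 0.000736). The authors set the shorter region from these same libraries, and the sets were found from the counts. The fall and the gap between the groups may therefore be overstated, and both p-values may be too small. Over the longer region of the PF846 table, RPL13 had 12899, 14196 and 11807 normalised counts with vehicle and 14042, 12752 and 12895 with PF846, and these groups overlapped. That change was 0.032 with the sets as a block (95% interval -0.07 to 0.14; limma, adjusted p = 0.997). The regions differ, so the RPL13 values of the 2 compounds were not set against each other.

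**Figure D3:**
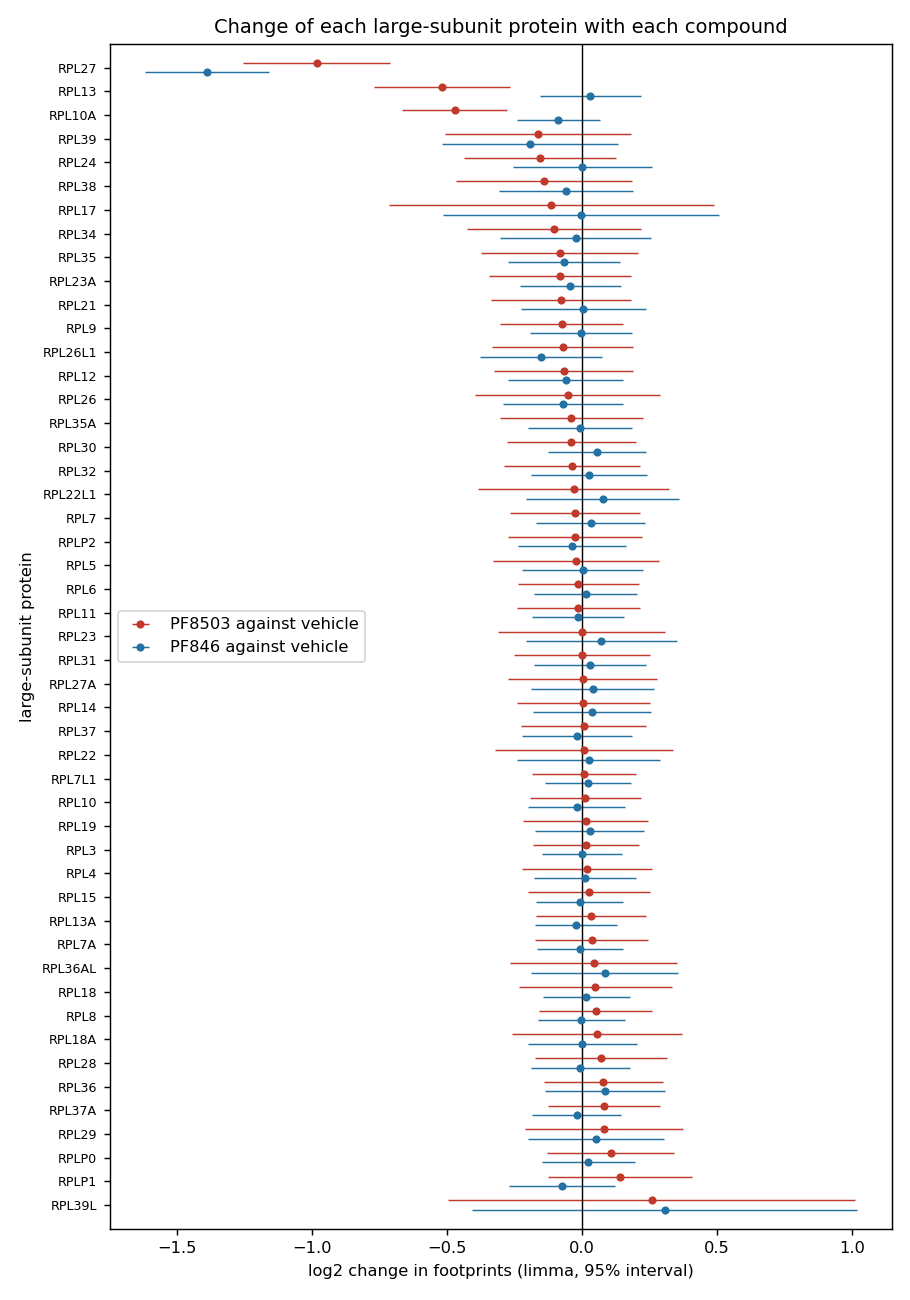
Log2 change of footprints relative to vehicle for each of the 49 large-subunit proteins (horizontal axis; points are limma estimates and bars 95% intervals) with PF8503 (red) and PF846 (blue), ordered by the PF8503 value. RPL27 stands apart with both compounds, RPL13 and RPL10A have PF8503 intervals below 0, and the widest intervals belong to RPL39L and RPL17, which have few counts.

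The remaining members stayed near 0. Leaving RPL27 out, the log2 ratios of the authors' means had a median of -0.0016 with PF8503 and -0.0005 with PF846, beside 0.0127 and 0.0009 over all transcripts. The ratio was within 0.25 of 0 for 46 of the 48 others with PF8503 and for 48 of 48 with PF846, against 92.0% and 96.2% of all transcripts. The 95% interval of the change lay wholly within 0.5 of 0 for 43 of 48 with PF8503, the exceptions being RPL13, RPL10A, RPL39, RPL17 and RPL39L. With PF846 it did so for 45 of 48, the exceptions being RPL39, RPL17 and RPL39L. Over all transcripts tested, it did so for 6817 of 9150 with PF8503 and for 7623 of 8835 with PF846, without matching for footprint level. For most members, a change of 0.5 or more on the log2 scale therefore lay outside the interval.

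After RPL27, RPL13 and RPL10A, the lowest ratios with PF8503 were those of RPL39 (-0.17), a very short protein lining the exit tunnel, and RPL24 (-0.16), which forms a bridge to the small subunit. The highest were those of RPLP1 (0.14), an acidic protein of the P stalk, RPL39L (0.14), RPLP0 (0.11), RPL37A (0.083) and RPL36 (0.077). With PF846 the lowest after RPL27 were RPL39 (-0.20), the paralog RPL26L1 (-0.15), RPL10A (-0.09) and RPLP1 (-0.08). The highest were RPL39L (0.18), RPL36 (0.088), RPL36AL (0.081), RPL23 (0.077) and RPL22L1 (0.069). None of the ratios in this paragraph passed the test, each with a limma adjusted p of 1.00.

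By place in the ribosome, the 9 proteins of the exit tunnel and its rim had a median log2 ratio of -0.04 with PF8503 and -0.02 with PF846. With either compound, 0 of 9 were called (limma, 0 of 9 also at an unadjusted p under 0.05). Over all transcripts, 3.04% with PF8503 and 1.57% with PF846 had an unadjusted p under 0.05 (limma). A count of 0 in groups this small, here and below, therefore sets none of them apart. RPL4, whose extension narrows the tunnel, had ratios of 0.018 and 0.0090, RPL19 had 0.011 and 0.027, and RPL23A, at the tunnel mouth, had -0.08 and -0.04. RPL39 had 2935, 2964 and 2071 normalised counts in the vehicle libraries, 2145, 2779 and 2138 with PF8503, and 2756, 2012 and 2174 with PF846, and all 3 groups overlapped.

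The P stalk, which recruits the elongation factors, had 0 of 4 members called with either compound (limma, 0 of 4 also at an unadjusted p under 0.05). The ratios of RPLP0, RPLP2, RPLP1 and RPL12 were 0.11, -0.03, 0.14 and -0.07 with PF8503, and 0.024, -0.04, -0.08 and -0.06 with PF846. RPL5 and RPL11, which join the subunit with the 5S rRNA, had ratios of -0.011 and -0.010 with PF8503 and 0.0047 and -0.014 with PF846. Neither was called (limma, none at an unadjusted p under 0.05).

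Of the proteins near the peptidyl transferase centre and the tRNA sites, 6 were listed. RPL3, which reaches towards the catalytic centre, had ratios of 0.015 with PF8503 and -0.00028 with PF846, RPL8 had 0.052 and -0.00080, and RPL10, which contacts tRNA, had 0.011 and -0.019. RPL27A had -0.0028 and 0.032. RPL10A alone had an unadjusted p under 0.05 with PF8503 (limma, 1 of 6, against 3.04% of all transcripts). With either compound, 0 of 6 were called (limma). The 5 paralogs had ratios from -0.07 to 0.14 with PF8503 and from -0.15 to 0.18 with PF846, with 0 called (limma, 0 also at an unadjusted p under 0.05). RPL39L rested on 60.7 to 184 normalised counts per vehicle library, and its interval with PF8503 ran from -0.50 to 1.01.

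The proteins of the small subunit are the nearest comparison. Of 31 transcripts with symbols starting RPS and a digit or RPSA, a rule that also takes in RPS27L and RPS19BP1, 1 was called with PF8503, namely RPS15A at -0.74 (SE 0.12; limma, adjusted p = 0.0216). With PF8503, 2 of 31 had an unadjusted p under 0.05 (limma), against 3.04% of all transcripts, and the log2 ratios ran from -0.73 to 0.68. With PF846, 0 of 30 were called (limma, 0 also at an unadjusted p under 0.05). Their median log2 ratio was 0.015 with PF8503 and 0.017 with PF846. Of 29 listed 60S assembly factors, 0 were called with either compound (limma, 2 with PF8503 and 0 with PF846 at an unadjusted p under 0.05), with medians of -0.025 and 0.015.

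Within a condition, the members varied about as much as other transcripts. The median SD of the log2 level across the 3 libraries was 0.14 for members and 0.13 for all transcripts in vehicle, 0.15 and 0.17 with PF8503, and 0.11 and 0.13 with PF846. RPL27 had SDs of 0.17, 0.18 and 0.16, and RPL10A was steadier at 0.024, 0.067 and 0.056.

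In vehicle cells, the members differed widely in footprint density, the authors' vehicle mean in the PF8503 table divided by coding codons less 10 at each end. The median was 79.8 normalised counts per codon, with quartiles of 52.2 and 99.5. The highest densities were those of RPL37 (169), RPL38 (146), RPL32 (132), RPL37A (131) and RPL13A (124), most of them short proteins. RPL27 followed in place 9 at 111 counts per codon, a lower bound if its counted region was shortened. RPL13 stood at 72.7, from its PF846 table value put on the same scale.

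The lowest densities were those of RPL17 (2.93), RPL39L (4.46), RPL26L1 (5.47), RPL22L1 (6.47) and RPL7L1 (7.81). The authors kept reads with a single position, and 96.8% of the 28-base windows of RPL17 were also found in the readthrough transcript RPL17-C18orf32. RPL17's value is thus a count of a few windows and not its level. RPL39 and RPL39L shared 16.7% of their windows with each other, and 40 of 49 members shared none. Without RPL17 and the paralogs, the density of the 43 remaining proteins spanned 5.63-fold, from 30.1 for RPL26 to 169 for RPL37. RPL12 (33.5) and RPLP0 (35.8), which both belong to the P stalk and its base, were next lowest. These densities have no test and depend on the canonical coding lengths, from 51 codons for RPL39 and RPL39L to 427 for RPL4.

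**Figure D4:**
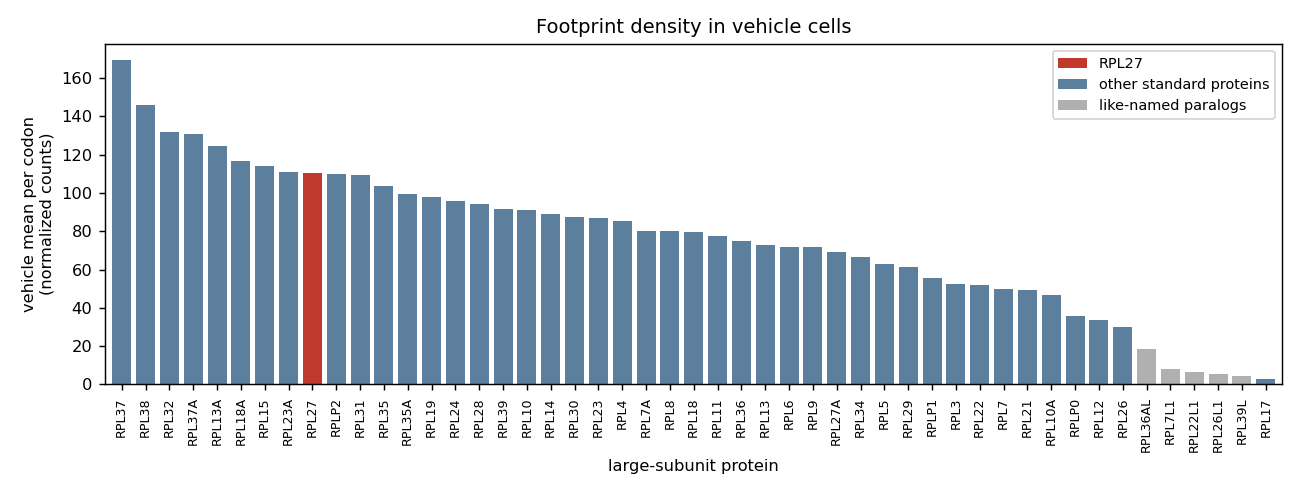
Footprint density in vehicle cells (authors' vehicle mean per counted codon, in normalised counts, linear axis from 0) of the 49 large-subunit proteins in descending order, with RPL27 in red and like-named paralogs in light grey. RPL27 is the ninth highest at 111 counts per codon, and the paralogs and RPL17 form the low end.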

How the data were processed

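The deposited signal of a condition is the average of its 3 libraries, each a footprint count that the authors divided by a size factor from DESeq. Per the paper's methods, adapters were removed with the FASTX toolkit, rRNA reads were discarded, and the rest were aligned with Bowtie to canonical coding transcripts (GENCODE 24, GRCh38), keeping reads with 1 position. Footprints were assigned to P-site codons and counted 3′ of the point of greatest divergence if that point reached a Z score of 2, or else without 10 codons at each end; transcripts with more than 30 counts were kept. Tool versions are not given in the sources used here. Further deposited columns hold the authors' fold changes and p-values and were not used.

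Counts of single libraries were derived here. The 14 lowest means of each column fix the 3 size factors as whole-number relations, and each mean then has 1 acceptable set of 3 counts, with limits set on these files. This resolved 99.924% to 99.966% of transcripts per column, and the 3 to 7 left out are the most abundant (60460 normalised counts or more). Size factors recomputed as the median of ratios differed by at most 0.0119%. Of 8637 transcripts with a constant vehicle ratio between the tables (log2 tolerance 0.002), 8636 gave identical vehicle counts, the exception being RPL27. Tested on simulated data, 2457 of 2458 transcripts were solved and 0 were wrong.

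Each compound was compared with vehicle by limma 3.58.1 (R 4.3.3; lmFit, eBayes with trend, 2-sided) on log2(count / size factor + 1), with Benjamini-Hochberg adjustment over the table. PF8503 was compared with PF846 in 1 fit of the 9 libraries over transcripts with the same vehicle counts, to which RPL27 was added although its regions differ slightly. In simulated data for PF8503 (9150 transcripts), log2 changes of -1 and -0.5 were found in 100% and 81% of cases, and 5.73% of calls were unchanged transcripts. For PF846 (8835 transcripts) these were 99%, 88% and 4.1%. The simulated libraries were independent, with the same spread for every transcript, whereas the real libraries deviated together in sets. These shares may therefore not hold for the real data.

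The members, lists and tests were chosen with earlier results of these data known. Named were RPL27, the 5 lowest and highest ratios per compound, the 5 highest and lowest densities, members called or counted over another region, and 2 to 4 examples per group by vehicle mean; RPL10A and RPL13 are described further because their values stood out. The values of 1 listed comparison group are not reported here. Coordinates, lengths and 28-base windows come from GENCODE 44 (GRCh38), a newer annotation of the authors' build. Alternatives were other pseudocounts (0.5 and 10), centring, leaving out each library, a minimum mean of 100, other thresholds, voom weights and no trend. The 9-library fits against vehicle and the library sets as a block were added after the data were seen. Python 3.11.15, numpy 2.4.6, pandas 2.3.3 and matplotlib 3.10.9 were used.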

Additional observations from a re-analysis of the deposited data

How the results depend on the processing

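The fall of RPL27 stayed past the threshold under all 11 alternatives for each compound, with leave-one-out log2 changes from -1.08 to -0.89 with PF8503 and from -1.48 to -1.31 with PF846. For the difference between the compounds, leave-one-out values ran from 0.31 to 0.49 and none passed, while the library sets as a block gave 0.40 past the threshold. Of the members, 1 was called with PF8503. The count was 2 of 48 with the 9 libraries in 1 fit (RPL10A and RPL27), which left out RPL13. It was 3 with the sets as a block (RPL10A, RPL13 and RPL27), and 0 without RPL27. By the absolute log2 ratio with no test, it was 3 at 0.25, 2 at 0.5 and 0 at 1. With PF846 the count was 1 under every alternative but 0 without RPL27. For both compounds that 0 was fixed in advance, since RPL27 was the only member called in the main test. Leaving out any 1 library kept both counts at 1. The median ratio of the members moved by less than the SD between libraries under every alternative, from -0.09 to 0.038 with PF8503 and from -0.06 to 0.047 with PF846.

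With the labels' replicate numbers, no paired analysis was possible because the derived counts carry no replicate number. The library sets used as a block are a pairing found from the counts themselves. With 3 libraries per condition the permutation test cannot go below 0.1, and the intervals of RPL39L and RPL17, which have few counts, reached beyond 0.5.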
